A study of Mus musculus with 3 samples.

Results

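The genes described here are 6 apolipoprotein genes, Apoa1, Apoa2, Apob, Apoc2, Apom and Apoe, out of 32285 genes in the count tables. They were taken by symbol, from a choice made with earlier results of these data known, and all 6 were measured. Apolipoproteins coat the fat particles that carry cholesterol and triglyceride between cells. In the early mouse embryo the visceral endoderm, the layer around the epiblast that later lines the yolk sac, makes these particles and passes maternal lipid to the embryo before the liver exists. Each particle type has its own protein: Apob is the large scaffold of very low and low density lipoproteins, Apoa1 and Apoa2 are the main proteins of high density lipoproteins, and Apoc2, Apoe and Apom are smaller proteins that ride on either kind.

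The cells came from mouse blastoids, which are blastocyst-like aggregates of stem cells, sequenced as 3 single-cell libraries named Type I, Type II and Type III. All 3 started from the E14 embryonic stem cell line, a single line. These cells were kept in 1000 U/mL LIF and 10 µM T0901317, an agonist of the liver X receptors. No library came from stem cells kept without the agonist. Whether it was present on the later days of blastoid culture cannot be told from the labels. All 3 types were seeded at 5 cells per microwell with 12.5 ng/mL rhFGF4, 0.5 µg/mL heparin and 3 µM CHIR99021. The seeding medium also held 2 µM Y-27632, and the medium that replaced it held 5 ng/mL BMP4 and 0.5 µM A83-01. Blastoids were picked by hand on day 5, and what separates the types is not given in the labels. With 1 library for each type, a difference between types has no replicate check and was not tested.

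Cells were barcodes with at least 10000 UMIs (unique molecular identifiers, 1 for each captured mRNA molecule) of which at most 20% were mitochondrial. There were 1405 such cells of 6813 barcodes in Type I, 1992 of 9265 in Type II and 272 of 2310 in Type III, with medians of 41491 to 71540 UMIs a cell, and they held 82.2% to 86.9% of all UMIs. Doublets (2 cells under 1 barcode) were neither called nor removed. Type III stands apart: 161 of its 272 cells carry a barcode that is also listed in another library, against 58 of 1405 in Type I and 26 of 1992 in Type II. Among its endoderm cells this was true of 44 of 63. No barcode was kept as a cell both in Type III and in another library, and what led to the shared barcodes was not tested. With those barcodes left out, each member kept its direction and its side of the threshold in all 3 comparisons between cell groups below.

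Cells were sorted by lineage genes that are not apolipoproteins, in CPM (a gene's UMIs as a share of the cell's UMIs, on a common scale). Cells with at least 100 CPM of Gata6, Sox17 and Gata4 together, which are primitive endoderm regulators, are called endoderm-rule cells: 673, 877 and 63 in Types I, II and III. The rules were applied in order, and 486, 624 and 33 of these cells also met the keratin rule below and 50, 73 and 17 the Pou5f1 rule, so that 143, 197 and 15 met the endoderm rule alone. Of the others, those with at least 800 CPM of Krt8, Krt18 and Krt19, keratins of simple epithelium, are called keratin-rule cells: 242, 330 and 72. Of the rest, those with at least 150 CPM of Pou5f1, the pluripotency factor Oct4, are called Pou5f1-rule cells: 351, 587 and 121. The remaining 139, 198 and 16 cells met no rule.

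Marker genes set the 3 groups apart only in part. The keratin group held visceral endoderm markers in Types I and II and epiblast markers in all 3 types. The 10 visceral endoderm markers summed to 11768, 10521 and 7609.6 CPM in endoderm-rule cells and to 135, 252 and 53.3 CPM in Pou5f1-rule cells, where the 10 epiblast markers summed to 5282, 5396 and 5156 CPM. Endoderm-rule cells also held epiblast markers, at 850, 985 and 1394 CPM, and keratin-rule cells held them at 615, 1109 and 1638 CPM. Of the keratin-rule cells, 16, 31 and 10 also met the Pou5f1 rule. Trophectoderm markers summed to 821, 975 and 878 CPM in keratin-rule cells. They summed to 78.0, 92.2 and 98.6 CPM in endoderm-rule cells and to 61.8, 68.2 and 74.5 CPM in Pou5f1-rule cells. Keratin-rule cells also had visceral endoderm markers at 2778 and 2382 CPM in Types I and II, against 102 CPM in Type III. In Types I and II, 42 of 242 and 65 of 330 keratin-rule cells had at least 300 CPM of Ttr and Rbp4, carriers of thyroid hormone and retinol made by visceral endoderm. None of the 72 did in Type III, which allows a share of up to 4.17%. These cells are called Ttr/Rbp4-high below, and keratin-rule values are given with and without them. Macrophages also make Apoe, and their 8 markers summed to 20.04, 19.8 and 17.1 CPM in endoderm-rule cells and to 9.62, 10.2 and 11.7 CPM in Pou5f1-rule cells. C1qa, C1qb, Ptprc and Adgre1 had 0 UMIs in all endoderm-rule cells. The 2 markers that could be tested were both higher there than in Pou5f1-rule cells, Cd68 by 0.69 and Csf1r by 3.69 on the log2 scale, and their part in the Apoe result was not tested.

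The members lie at 5 places in the genome (build GRCm38). Apoe (7:19696109-19699188) and Apoc2 (7:19671579-19677941) sit on the minus strand of chromosome 7 at the ends of a cluster of 27610 bases that also holds Apoc1 and Apoc4. Apoa1 (9:46228580-46230466) opens a cluster of 43340 bases on chromosome 9 with Apoc3, Apoa4 and Apoa5. Apoa2 (1:171225054-171226379), Apob (12:7977648-8016835) and Apom (17:35128997-35132050) stand apart from these. Promoters are shown for the 2 ends of the chromosome 7 cluster and for Apoa2, the members whose start is the same in RefSeq and in the gene annotation. Each line gives the 140 bases before the start, 5′ to 3′ in the gene's direction, from RefSeq's GRCm38.p6 table, and capitals mark the motifs found.
Apoc2 (chr7:19677942-19678081, minus strand): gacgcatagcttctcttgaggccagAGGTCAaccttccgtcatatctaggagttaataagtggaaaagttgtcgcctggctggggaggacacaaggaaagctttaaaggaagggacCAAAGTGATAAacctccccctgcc
Apoa2 (chr1:171224914-171225053, plus strand): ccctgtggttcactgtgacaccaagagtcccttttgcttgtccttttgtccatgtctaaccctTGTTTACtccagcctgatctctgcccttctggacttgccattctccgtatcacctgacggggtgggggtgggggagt
Apoe (chr7:19699189-19699328, minus strand): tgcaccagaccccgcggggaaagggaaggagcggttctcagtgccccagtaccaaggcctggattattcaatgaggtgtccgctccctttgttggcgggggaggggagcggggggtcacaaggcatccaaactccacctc
Searched on both strands were AGGTCA (1 repeat of a nuclear receptor site), CAAAGT (the core of an HNF4 site), the longer HNF4 form CAAAGTCCA, the FOXA form TGTTTAC, the GATA form AGATAA with its variant TGATAA, the TATA box TATAAA, and pairs of AGGTCA with a gap of 1 base or 4 bases, the second of which is the form bound by liver X receptors. Apoc2 held AGGTCA once and then CAAAGT overlapping with TGATAA, which occur in 8.003%, 6.53% and 4.14% of all 32851 promoters of that length. Apoa2 held TGTTTAC, found in 1.67% of promoters. The Apoe window held none of these letter strings, and neither pair of AGGTCA was in any of the 3 windows. The pairs occur in 0.0304% and 0.0122% of promoters, and a match here is a description of the letters and not a measured binding site.

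Endoderm-rule cells carried all 6 mRNAs at higher levels than Pou5f1-rule cells in each of the 3 libraries. Apoe was the most abundant in every cell group, and the other 5 followed in endoderm-rule cells in the order Apoc2, then Apob and Apom, then Apoa2 and Apoa1. Levels can be set side by side between genes because a 3′ UMI counts a molecule once whatever its length. Apob and Apom changed places between libraries, so their order is not a common feature.

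Apob had 541, 698 and 424 CPM in the endoderm-rule cells of Types I, II and III, and 4.63, 15.6 and 0.808 CPM in Pou5f1-rule cells. The level in the first group exceeded that in the second 117-fold, 44.8-fold and 525-fold, the last resting on 6 UMIs in Pou5f1-rule cells (95% interval 241 to 1433). Over the 3 libraries this was 555 ± 137 against 7.02 ± 7.68 CPM (mean ± SD, n = 3 libraries), a log2 difference of 6.69 (SE 0.944, adjusted p = 1.06e-04 by edgeR's quasi-likelihood test with library as a block). Of 13502 genes tested, Apob had rank 13 by the size of its rise. The groups did not overlap for any of the 6 genes, and for 43.7% of all genes tested every endoderm-rule library likewise lay above every Pou5f1-rule library.

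Apoc2, the cofactor that switches on lipoprotein lipase, had 840, 958 and 481 CPM in endoderm-rule cells. In Pou5f1-rule cells it had 9.36, 20.1 and 4.31 CPM, a log2 difference of 6.31 in favour of endoderm-rule cells (SE 0.851, adjusted p = 7.63e-05, edgeR). Type II was highest and Type III lowest in both groups.

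Apom, which carries sphingosine 1-phosphate on high density lipoprotein, had 623, 584 and 385 CPM in endoderm-rule cells. In Pou5f1-rule cells it had 8.29, 15.1 and 1.08 CPM (log2 difference 6.25, SE 0.812, adjusted p = 5.88e-05, edgeR). It was the only one of the 5 less abundant genes whose endoderm level was highest in Type I.

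Apoa2 had 347, 393 and 154 CPM in endoderm-rule cells against 5.09, 17.4 and 2.02 CPM in Pou5f1-rule cells (log2 difference 5.39, SE 0.807, adjusted p = 1.58e-04, edgeR). Apoa1, which takes up cholesterol from cells and activates its esterification, was the least abundant member, at 140, 199 and 96.5 CPM. Its Pou5f1-rule levels were 2.14, 6.94 and 1.21 CPM (log2 difference 5.44, SE 0.694, adjusted p = 5.14e-05, edgeR).

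Apoe, which lets cells take up lipoprotein remnants, behaved differently in size. It had 6544, 7054 and 5541 CPM in endoderm-rule cells and still 1119, 1232 and 1018 CPM in Pou5f1-rule cells. The ratio was 5.85, 5.72 and 5.44, the narrowest range of any member, with a log2 difference of 2.36 (SE 0.288, adjusted p = 3.78e-05, edgeR). It ranked 834 of 13502 genes by the size of its rise. Apoe made up 72.4%, 71.4% and 78.2% of the UMIs of the 6 genes in endoderm-rule cells and 97.4%, 94.3% and 99.1% in Pou5f1-rule cells.

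All 6 members passed the test upward, where 38.2% of all genes did, and all 6 passed a stricter test for a difference of more than 2-fold, which 14.4% of genes passed upward. The per-library plot of levels shows the 5 less abundant genes in Pou5f1-rule cells with Type II above Type I above Type III for every gene. Leaving out Type II raised the log2 difference of Apob to 8.10, of Apom to 7.41, of Apoc2 to 6.92, of Apoa2 to 6.62 and of Apoa1 to 6.47, and leaving out Type III lowered them to 5.82, 5.52, 5.79, 4.86 and 5.04, while Apoe stayed between 2.33 and 2.41. The libraries served as replicates although they are different types, and p-values cover only the spread between them.

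**Figure D1:**
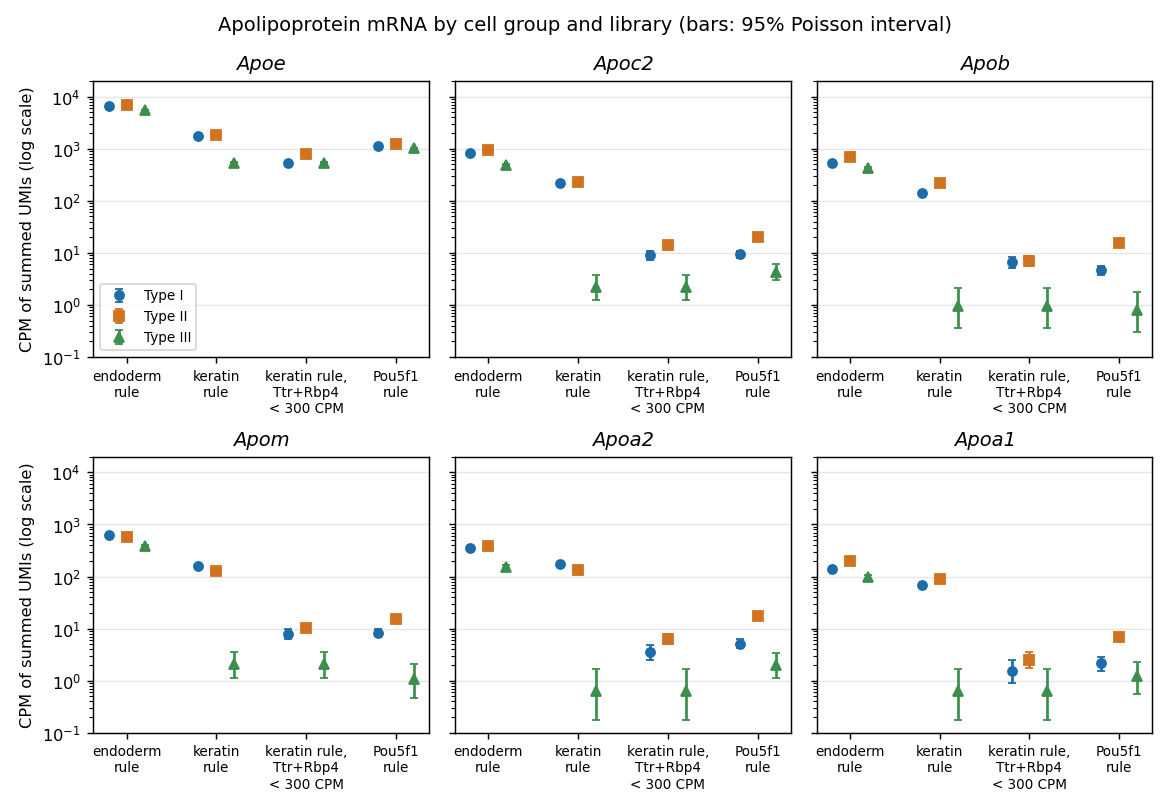
CPM of summed UMIs (log scale) of each member by cell group, with 1 point for each library and 95% Poisson intervals that cover counting error only. All endoderm-rule points lie above the Pou5f1-rule points. The keratin-rule points of Types I and II lie above those of Type III, and move down when Ttr/Rbp4-high cells are left out.

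Keratin-rule cells lay below endoderm-rule cells in every library, but by very different amounts. Apob had 143, 216 and 0.964 CPM in the keratin-rule cells of Types I, II and III, so the endoderm level was 3.78, 3.24 and 441 times as high. For Apoa1 the keratin-rule levels were 69.4, 87.9 and 0.642 CPM and the ratios 2.01, 2.26 and 150. Apoa2 followed with 171, 136 and 0.642 CPM, Apoc2 with 224, 235 and 2.25 CPM, and Apom with 160, 129 and 2.09 CPM. Type III is the low library for each of these 5 genes, and its values rest on 4 to 14 UMIs a gene. Apoe was closer, at 1744, 1875 and 539 CPM, with ratios of 3.75, 3.76 and 10.3.

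The test over the 3 libraries called all 6 members higher in endoderm-rule than in keratin-rule cells, where it called 30.9% of genes higher. The log2 differences were 3.19 for Apom (SE 0.694), 3.07 for Apoc2 (SE 0.727), 3.05 for Apob (SE 0.788), 2.47 for Apoe (SE 0.293), 2.20 for Apoa2 (SE 0.671) and 1.89 for Apoa1 (SE 0.537). Their adjusted p-values by edgeR ran from 5.61e-05 for Apoe to 0.0166 for Apoa2. The stricter test passed Apob, Apoc2, Apom and Apoe but neither Apoa1 nor Apoa2, where it passed 7.33% of all genes upward. The calls for these last genes were the least secure: with cells that met only 1 rule, the difference was 0.02 for Apoa1 (adjusted p = 0.976, edgeR) and 0.23 for Apoa2 (adjusted p = 0.673, edgeR). Leaving out Type II ended the call for Apoa2 (2.77, adjusted p = 0.0624, edgeR), and leaving out Type III lowered the difference to between 1.22 for Apoa1 and 2.19 for Apom, with all 6 still called.

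Nearly all of the 5 less abundant mRNAs in keratin-rule cells of Types I and II lay in the Ttr/Rbp4-high cells. Those 42 and 65 cells had summed levels of the 5 genes of 4931 and 4978 CPM, beside 2490 and 2832 CPM in endoderm-rule cells. The groups were picked unlike: Ttr and Rbp4 go with the members, and 74.9% and 69.2% of endoderm-rule cells met the same cut. The other 200 and 265 keratin-rule cells had 28.5 and 40.5 CPM, beside 29.5 and 75.2 CPM in Pou5f1-rule cells, of which 4 and 13 cells also met the Ttr/Rbp4 cut. Apob had 911 and 1355 CPM in the Ttr/Rbp4-high cells and 6.60 and 7.06 CPM in the others. Apoe had 8525 and 7842 CPM against 541 and 783 CPM. The Ttr/Rbp4-high cells had visceral endoderm markers at 17409.8 and 14087 CPM. Their trophectoderm markers were at 144 and 96.4 CPM, beside 78.0 and 92.2 CPM in endoderm-rule cells, so the levels were close only in Type II. Ttr and Rbp4 are themselves on the visceral endoderm list, so its level in these cells was partly fixed by the cut. At least 1 UMI of Gata6, Sox17 or Gata4 was found in 34 of the 42 and 54 of the 65.

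Against Pou5f1-rule cells, the result for keratin-rule cells depended on these cells. With all cells, the 5 less abundant members were called higher in keratin-rule cells by 3.06 to 3.63 on the log2 scale (adjusted p from 0.00154 to 0.00554, edgeR), where 30.8% of genes were called higher. Apoe was not called (-0.11, SE 0.280, adjusted p = 0.755, edgeR). These calls rest on Types I and II, since without Type I only 1 member was called higher, where 22.9% of genes were. In Type III the keratin-rule level was 0.530 times the Pou5f1-rule level for Apoa1, 0.318 times for Apoa2, 0.522 times for Apoc2, 1.19 times for Apob and 1.94 times for Apom, and of these counting intervals only that of Apoa2 (0.0768 to 0.998) did not include 1. Trophectoderm markers were higher in keratin-rule cells for 8 of 9 tested genes, with a median log2 difference of 3.30 against 0.02 over all genes. Visceral endoderm markers were higher for 10 of 10.

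With the Ttr/Rbp4-high cells left out, a step chosen after the data were seen, no member was higher in keratin-rule than in Pou5f1-rule cells. Apoa1 differed by -1.46 (adjusted p = 0.00374, edgeR), Apoa2 by -1.49 (adjusted p = 0.00617), Apoc2 by -0.68 (adjusted p = 0.0393) and Apoe by -1.19 (SE 0.0795, adjusted p = 5.13e-07). Apob at -0.84 and Apom at -0.65 did not pass (adjusted p = 0.145 and 0.157, edgeR). The background of genes called lower was 30.2%. This step filters 1 of the groups on genes that go with the members. When the 4 and 13 Pou5f1-rule cells of Types I and II above the same cut were left out too, Apoe at -1.16 (adjusted p = 7.13e-07, edgeR) and Apoa1 at -0.63 (adjusted p = 0.0156, edgeR) were still called lower, where 30.1% of genes were. Apoa2 at -0.46 (adjusted p = 0.1001), Apoc2 at -0.34 (adjusted p = 0.191), Apom at -0.22 and Apob at -0.17 (adjusted p = 0.562 and 0.714, edgeR) were not. Without their Ttr/Rbp4-high cells, keratin-rule cells had 541, 783 and 539 CPM of Apoe, below the 1018 to 1232 CPM of Pou5f1-rule cells in every library. Against endoderm-rule cells, leaving out the Ttr/Rbp4-high keratin-rule cells widened the differences, where 32.9% of genes were called higher, to between 6.52 and 7.02 for the 5 less abundant members and to 3.55 for Apoe, and cut their SE to between 0.0862 and 0.394.

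**Figure D2:**
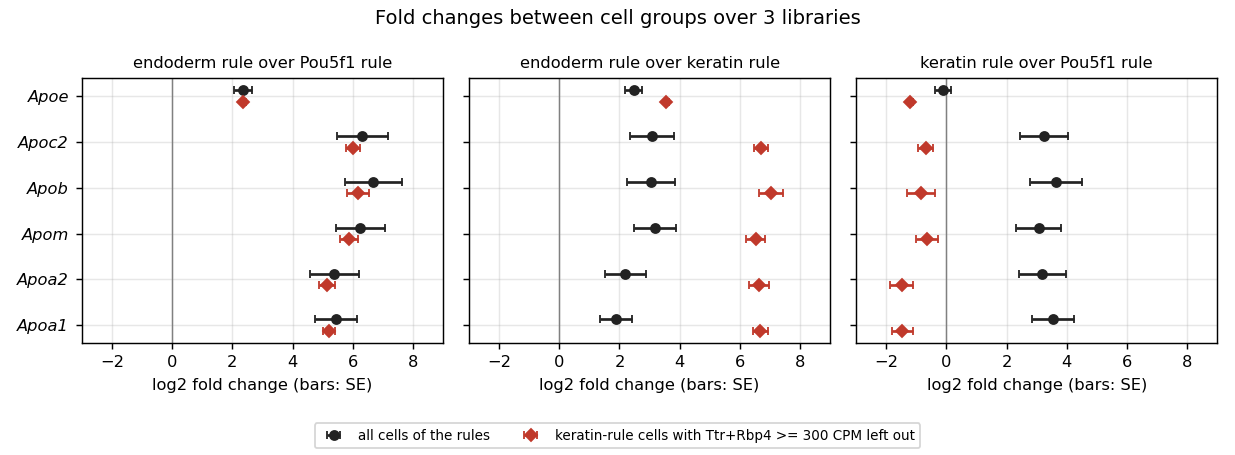
Log2 fold change of each member in the 3 comparisons, with its SE, derived from the F statistic of the test, as the bar. Circles use all cells of the rules and diamonds leave out the Ttr/Rbp4-high keratin-rule cells. The left panel hardly moves, the middle panel moves to the right, and the 5 less abundant members cross 0 in the right panel.

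At an equal depth, the 5 less abundant mRNAs were found in part of the endoderm-rule cells, and Apoe in nearly all. To compare cells of unlike depth, each was thinned to 10000 UMIs. At that depth Apoe was found in 99.9%, 99.0% and 95.2% of endoderm-rule cells, and also in 98.9%, 99.1% and 100% of Pou5f1-rule cells, so the share does not separate the groups although the level does. Apom was found in 78.6%, 77.9% and 61.9%, Apoc2 in 62.4%, 64.5% and 39.7%, and Apob in 56.8%, 60.5% and 33.3%. Apoa2 followed with 45.2%, 45.5% and 27.0%, and Apoa1 with 28.4%, 31.6% and 19.05%. In all 5 cases Type III had the lowest share. Without thinning the shares were higher, for example 69.8%, 73.2% and 42.9% for Apob, so they depend on depth. The 25th percentile of Apoc2 was then 24.7, 27.1 and 0 CPM, and the 10th percentile of Apom was 15.4, 0 and 0 CPM.

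In droplets, free RNA can give UMIs to cells that do not make a gene, so the shares in Pou5f1-rule cells are set beside these. They were 5.41%, 6.81% and 1.65% for Apob, 7.69%, 11.2% and 1.65% for Apom, 9.12%, 14.0% and 6.61% for Apoc2, 5.13%, 8.35% and 3.31% for Apoa2, and 2.85%, 3.41% and 0.826% for Apoa1. The median depth before thinning was 57747, 46735 and 59991 UMIs in Pou5f1-rule cells and 53180, 39721 and 86673 in endoderm-rule cells. In the keratin-rule cells of Type III Apob was found in 1.39% of cells and Apoa1 and Apoa2 in 0 of 72, which at the thinned depth allows up to 4.17% of cells with a UMI. Before thinning these cells held 4 UMIs of each, so the 0 bounds no expression. The measured shares of these genes were at or below the Pou5f1-rule shares. Whether the Pou5f1-rule UMIs are free RNA was not tested.

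Levels varied widely from one endoderm-rule cell to the next. The summed level of the 5 less abundant genes had medians of 965, 1036 and 213 CPM, and its 10th and 90th percentiles were 55.2 and 6848 CPM in Type I, 60.9 and 7850 in Type II, and 0 and 4493 in Type III. The sum was 0 in 20, 19 and 10 cells (2.97%, 2.17% and 15.9%) and reached 16981, 22296 and 13335 CPM in the highest cell. Apoe was far more even, with medians of 6112, 6763 and 5305 CPM and percentiles of 2903 and 10588 in Type I. All 6 members were found together in 142 (21.1%), 212 (24.2%) and 10 (15.9%) endoderm-rule cells at the thinned depth. Exactly 1 member, which in Pou5f1-rule cells was the case for 74.6%, 67.3% and 86.8% of cells, was found in 12.6%, 11.5% and 27.0% of endoderm-rule cells.

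A small number of cells held most of the rarer mRNAs. The top 10% of endoderm-rule cells held 75%, 73.8% and 86.5% of all Apoa1 UMIs and 65.7%, 62.7% and 85.0% of Apoa2. For Apoc2 this share was 55.3%, 54.0% and 67.6%, for Apob 51.0%, 48.6% and 65.1%, and for Apom 34.8%, 34.8% and 40.6%. It was 19.1%, 19.4% and 21.9% for Apoe, the gene with the most even spread in each library. Counting error is larger for the rarer genes, and its part in these shares was not tested.

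**Figure D3:**
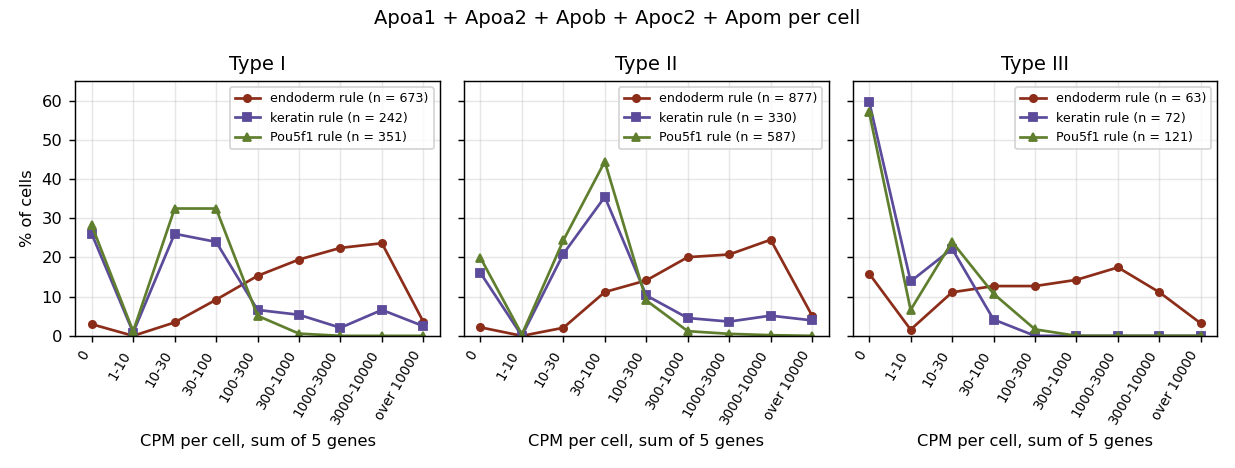
Percent of cells (vertical axis) by the summed CPM of Apoa1, Apoa2, Apob, Apoc2 and Apom in the cell (horizontal axis, in classes), for each cell group and library. Endoderm-rule cells reach from 0 to over 10000 CPM. Keratin-rule cells of Types I and II have a second rise above 3000 CPM that Type III lacks.

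Within endoderm-rule cells the 6 mRNAs went up and down together. Spearman's rho over cells thinned to 10000 UMIs was above 0.4 for all 15 pairs in each library. The strongest pair was Apob with Apoc2, at 0.722, 0.718 and 0.795 in 673, 877 and 63 cells, followed by Apoc2 with Apom at 0.661, 0.691 and 0.735. Among the 10 pairs without Apoe the median was 0.59, 0.61 and 0.67. Apoe correlated with the sum of the other 5 at 0.69, 0.64 and 0.70. Its pair with Apoa1 was the weakest in Types I and II (0.405 and 0.419), and its pair with Apoa2 in Type III (0.427). These values describe cells that share a library and are not replicates. In Type III they rest on 63 cells, and the median over the 10 pairs was 0.51 without the barcodes shared with other libraries.

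**Figure D4:**
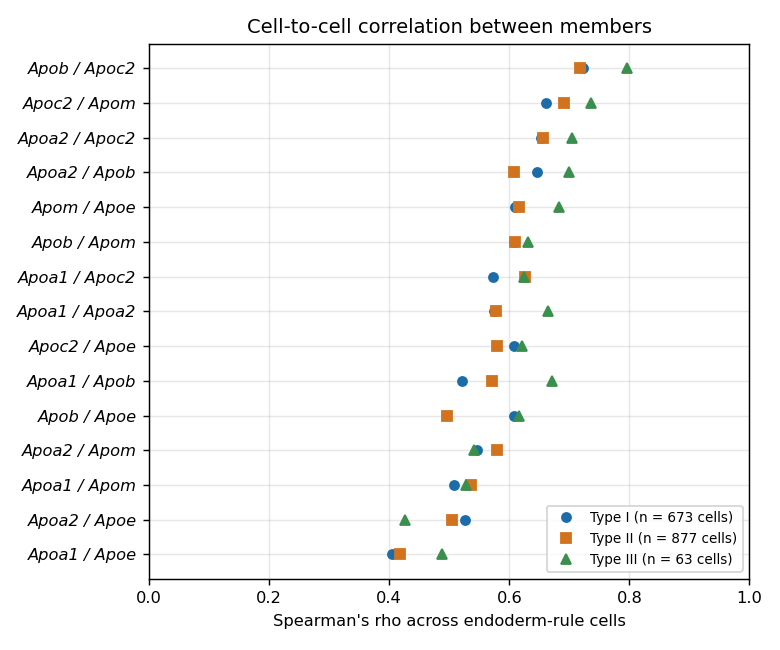
Spearman's rho between each pair of members across endoderm-rule cells thinned to 10000 UMIs, with 1 point for each library. All points lie above 0.4, Apob with Apoc2 is highest and pairs of Apoe with Apoa1 or Apoa2 are lowest.

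The genes most like each member across endoderm-rule cells were found by mean rho over the 3 libraries. They were ranked among 6266 genes present in at least 10% of endoderm-rule cells of each library. The members themselves, the genes of the cell rules, and mitochondrial and ribosomal protein genes were left out of this ranking. Places below hold only among the genes that remained, and some pairs of members had a higher rho. Ttr came first for Apoa1 (0.58), Apoa2 (0.67), Apob (0.75), Apoc2 (0.75) and Apom (0.69), and second for Apoe (0.62). Apob was next closest to Nrk (0.70), a kinase, Gpc3 (0.69), a cell surface glypican, Selenop (0.63), which carries selenium in plasma, and Rbp4 (0.60). Apoc2 followed Gpc3 (0.65), Nrk (0.64), the galectin Lgals2 (0.63) and the lysosomal protease Lgmn (0.63). For Apom they were the protease inhibitor Spink1 (0.68), Lgmn (0.63), Emb (0.62) and Gpc3 (0.61). Apoa2 was close to Rbp4 (0.61), Lgals2 (0.55), Trf, the iron carrier transferrin (0.54), and Gpc3 (0.53). Apoa1 was close to Trf (0.55), Nrk (0.51), Lgals2 (0.50) and Emb (0.47). Apoe was close to Lgmn (0.62), Ttr, Spink1 (0.61), the lysosomal protease Ctsl (0.60) and Gpc3 (0.58). Lgmn stood before Ttr for Apoe through the 63 cells of Type III (0.741 against 0.560), while Ttr was ahead in Type I (0.655 against 0.557) and Type II (0.632 against 0.569).

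The summed level of the 5 less abundant genes followed Ttr across cells at a rho of 0.81, 0.84 and 0.78, and the visceral endoderm list at 0.76, 0.81 and 0.85. These relations are not separate, since that list holds Ttr, Rbp4, Trf and Spink1, which are among the genes most like the members. The 5-gene sum ran against the epiblast list (-0.53, -0.54 and -0.40) and against Gata6 (-0.25, -0.30 and -0.22), one of the genes that define the group. Cells entered the group by their sum of Gata6, Sox17 and Gata4. The rule limits the range of Gata6 here, so no conclusion is drawn from that value, and those for Sox17 and Gata4 are not reported here. The relation of the 5-gene sum to the list of parietal and basement membrane genes, made by matrix-secreting endoderm, differed by library. It was -0.42 and -0.34 in Types I and II and 0.16 in Type III. Apoe gave -0.19, -0.11 and 0.50 with that list. UMIs a cell moved with the sum at 0.14, 0.13 and 0.17. Percent mitochondrial did so at 0.23, 0.25 and 0.31, similar in size to Gata6 with the opposite sign. The part of depth and mitochondrial share in these relations was not tested.

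Ordering the endoderm-rule cells by the visceral endoderm list, which holds Ttr, and dividing them into 3 equal parts shows the size of this relation. Apob rose from 68.4 through 590 to 1054 CPM in Type I, from 101 through 589 to 1478 in Type II, and from 4.76 through 124 to 1100 in Type III. Apoc2 went from 65.3 to 1546 CPM and from 52.6 to 1950 CPM between the lowest and highest part of Types I and II. Apom went from 147 to 1108, from 128 to 1048 and from 23.8 to 800 CPM. Apoa1 went from 7.11 to 280 and from 9.56 to 435 CPM, and Apoa2 from 28.9 to 753 and from 33.8 to 936 CPM. In the lowest part of Type III, with 21 cells, Apoa1, Apoa2 and Apoc2 had 0 UMIs, which allows up to 14.3 CPM, against 276, 386 and 1181 CPM in its highest part. Apoe changed least, from 4351 to 8820, from 4488 to 9505 and from 2033 to 8552 CPM. Every member was higher in the highest than in the lowest part in each library.

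Ordered by the parietal and basement membrane list, the 5 less abundant genes went the other way in Types I and II. Apoa1 fell from 273 through 63.4 to 19.2 CPM in Type I and from 376 through 102 to 31.2 CPM in Type II. Apoc2 had 1389 CPM in the lowest part and 158 in the highest in Type I, and 1657 and 198 in Type II. Apob had 827 and 257 CPM in Type I, and 1152 and 275 in Type II. In Type III the middle part was highest for every member except Apoa1. Apoe had 7004, 7006 and 5450 CPM in the 3 parts of Type I, a smaller change than for any other member there, and 3038, 6538 and 6457 CPM in those of Type III. These orderings describe cells of 1 library at a time and were not tested.

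**Figure D5:**
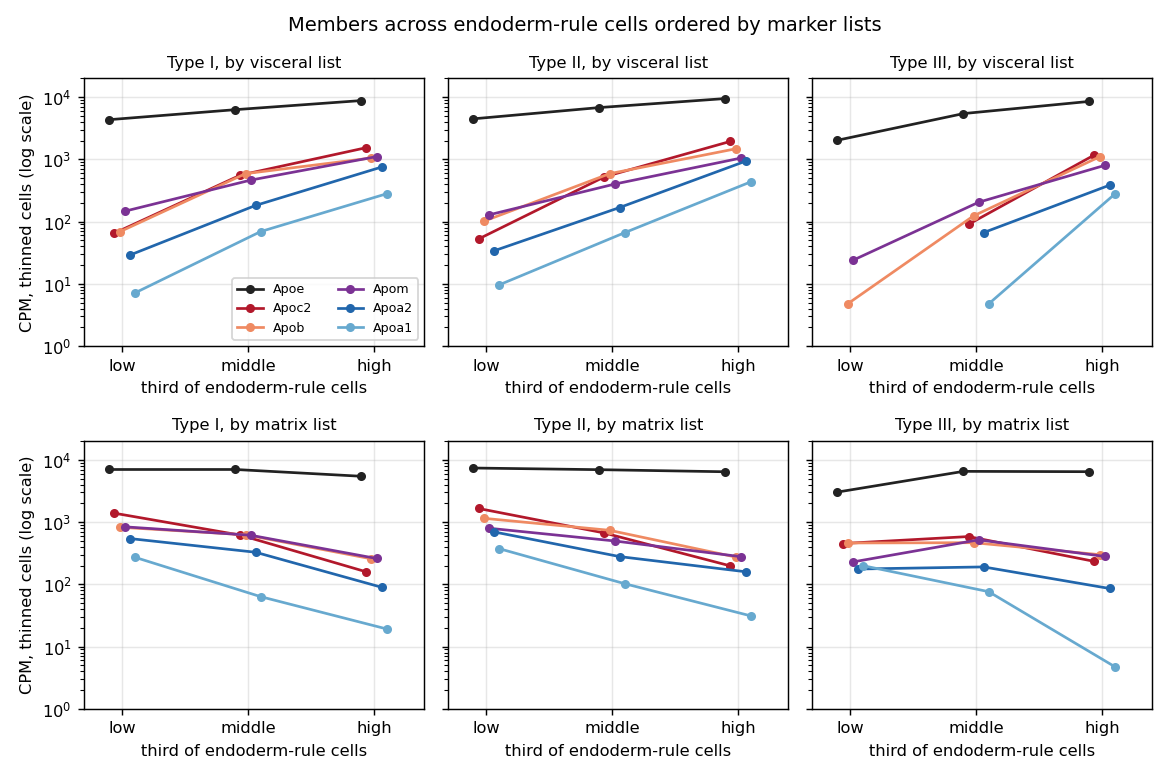
CPM of each member (log scale) in 3 equal parts of the endoderm-rule cells, ordered by the visceral endoderm list (upper row) or the parietal and basement membrane list (lower row), for each library. The upper lines rise in all panels, and the lower lines of the 5 less abundant genes fall in Types I and II. Apoa1, Apoa2 and Apoc2 are not drawn in the lowest part of Type III in the upper row, where they had 0 UMIs.

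Neighbours of the members in the 2 clusters also had higher levels in endoderm-rule than in Pou5f1-rule cells. Of 11 other apolipoprotein genes 7 could be tested, of which 5 were higher and 2 lower in endoderm-rule cells, beside 38.2% and 36.1% of all genes. Apoa4, in the cluster of Apoa1, had 23.4 ± 4.75 against 0.316 ± 0.298 CPM (log2 difference 5.77, adjusted p = 1.14e-06, edgeR). Apoc3, which lies between Apoa1 and Apoa4, rose by 4.93. Apoc1, between Apoc2 and Apoe, had 280 ± 15.9 against 88.6 ± 5.49 CPM, a rise of 1.53 that was smaller than that of either end of its cluster. The lower genes were Apod (-5.89) and Apof (-4.69), both at under 4 CPM. Apoa5, Apoc4, Apoh and Apol6 were too low to test.

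Genes that load lipid onto Apob and export the particle were mostly higher too. Of 11 tested, 9 rose and none fell, beside 38.2% of all genes higher and 36.1% lower. Their median log2 difference was 1.06 against 0.03 over all genes. Mttp, the transfer protein that lipidates Apob, had 112 ± 8.39 against 11.5 ± 1.20 CPM (log2 difference 3.19, SE 0.259, adjusted p = 2.07e-06, edgeR) and was also higher than in keratin-rule cells, by 2.65. Prap1, at only 1.48 ± 0.697 CPM, rose by 5.55. Surf4, a cargo receptor for leaving the endoplasmic reticulum, rose by 1.59, and Sec23a, a coat subunit of the export vesicles, by 1.35. Klhl12 and Canx did not pass.

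The enzyme that edits Apob mRNA moved the other way. Apobec1 had 0.403 ± 0.216 CPM in endoderm-rule and 6.09 ± 0.373 CPM in Pou5f1-rule cells, a log2 difference of -4.34 (SE 0.257, adjusted p = 2.52e-07, edgeR). Its cofactor Rbm47 rose by 2.37, from 11.9 ± 0.790 to 67.4 ± 4.24 CPM. Khsrp fell by 0.31, Syncrip did not pass, and the cofactor A1cf was too low to test. Editing itself cannot be read from these counts.

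Of 14 receptor and uptake genes 11 were higher in endoderm-rule cells, 1 was lower and 2 did not pass, beside 38.2% of all genes higher and 36.1% lower. The largest rises were in the endocytic receptor Cubn (6.71), its partner Amn (6.69), the adaptor Dab2 (6.51) and the receptor Lrp2 (4.34), which take up proteins and lipoproteins at the apical face of visceral endoderm. Cubn and Amn are also on the visceral endoderm list. Lrp1, an Apoe receptor, fell by 1.12.

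Of 8 tested genes of lipid efflux and of particle remodelling in plasma, 4 rose and 3 fell, which is near the 38.2% and 36.1% of all genes. Lpl, the lipase that Apoc2 activates, had 3.91 ± 2.70 CPM in endoderm-rule and 22.4 ± 2.28 CPM in Pou5f1-rule cells (-3.13, adjusted p = 3.76e-06, edgeR). Its inhibitor Angptl4 fell by 4.45, and the efflux transporter Abcg1 fell by 2.90. Lcat, the enzyme activated by Apoa1, rose by 1.88 to 1.22 ± 0.240 CPM. Abca1, which hands cholesterol to Apoa1, did not pass (0.52, adjusted p = 0.195, edgeR).

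Of 20 transcription factors known to act on apolipoprotein genes, 16 were tested, of which 9 were higher and 3 lower in endoderm-rule cells, against the same 38.2% and 36.1%. Foxa2 rose by 5.16 and Hnf4a by 4.82, the last from 0.741 ± 0.289 to 23.7 ± 3.90 CPM. Across endoderm-rule cells Hnf4a followed the 5-gene sum weakly in Types I and II (rho 0.16 and 0.18) and at 0.39 in Type III. Nr5a2 fell by 4.37. Nr1h2, one of the receptors that the agonist T0901317 binds, fell by 0.78, from 23.1 ± 1.91 to 14.8 ± 1.41 CPM, and the other, Nr1h3, was too low to test.

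Between the types, the values are given side by side without a test. In endoderm-rule cells the 5 less abundant genes summed to 2490, 2832 and 1541 CPM, and all 6 to 9034, 9886 and 7083 CPM. Type III was lowest for each member, and its ratio to Type I was nearest to 1 for Apoe (5541 against 6544 CPM) and farthest from it for Apoa2 (154 against 347 CPM). The make-up of the sum was similar, with Apoc2 at 33.7%, 33.8% and 31.2%, Apob at 21.7%, 24.6% and 27.5%, Apom at 25.0%, 20.6% and 25.0%, Apoa2 at 13.9%, 13.9% and 10.0%, and Apoa1 at 5.60%, 7.01% and 6.26%. Visceral endoderm markers were also lower in Type III (7609.6 against 11768 and 10521 CPM), while parietal and basement membrane markers were not (8404 against 8359 and 8003 CPM). The share of endoderm-rule cells with at least 300 CPM of Ttr and Rbp4 was 74.9%, 69.2% and 42.9%. A lower level per cell and a smaller share of Ttr/Rbp4-high cells both enter these sums, and their parts were not tested.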

How the data were processed

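Single-cell 3′ libraries (10x kit v3.1 per the labels) were counted by the authors with Cell Ranger 6.0.1, as the file headers state, against mm10, as the submitters' processing notes state. The authors deposited the raw UMI counts as 3 matrices of 32285 genes. Their rule for calling barcodes as cells was not found in the labels or headers. Totals were 90126648, 106445641 and 25443474 UMIs in Types I, II and III. Cells were filtered and sorted by the rules in the text. UMIs were summed per library and cell group (9 sums) and tested with edgeR 4.0.16 (quasi-likelihood, TMM, low counts filtered, library as a block, Benjamini-Hochberg at 0.05 over 13502 genes, and a test over 2-fold). The SE of a log2 difference is its absolute size divided by the square root of the F statistic of that test. The test was checked on simulated counts. Shares and correlations used cells thinned to 10000 UMIs. Poisson and binomial intervals (95%, exact) cover counting error only. Named were the 6 members, up to 4 genes of each list with the largest changes called against Pou5f1-rule cells, and the 5 genes most like each member. Some genes that this rule names are not reported here. Mttp, Apoc1, Lrp1, Lcat, Abca1, Nr1h2 and genes that did not pass were named for their known role or as the rest of a small count. Members and lists were chosen with earlier results of these data known. Alternatives were other filters, cell rules, scalings, DESeq2 1.42.0, no block, and each library left out. Software was R 4.3.3, Python 3.11.15, numpy 2.4.6 and scipy 1.17.1.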

Additional observations from a re-analysis of the deposited data

Results flagged for a closer look

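In Type III the comparison of keratin-rule with Pou5f1-rule cells ran opposite to that in both other libraries for 4 members. The log2 ratio of their levels was -0.92 for Apoa1, -1.65 for Apoa2, -0.94 for Apoc2 and -0.92 for Apoe, while all were above 0 in Types I and II. The difference between libraries was not tested. The Apoa1 and Apoa2 values rest on 4 UMIs each in keratin-rule cells, and the counting intervals of the Apoa1 and Apoc2 ratios (0.119 to 1.90 and 0.257 to 1.01) include 1. With Ttr/Rbp4-high cells left out, Apoe was lower in keratin-rule cells in Types I and II as well, at 0.483 and 0.636 times the Pou5f1-rule level against 0.529 times in Type III.

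Barcodes under 10000 UMIs, which no comparison uses, also carried the 5 members other than Apoe. Their summed level was 1079, 928 and 395 CPM in Types I, II and III, against 29.5, 75.2 and 9.42 CPM in Pou5f1-rule cells and 2490, 2832 and 1541 CPM in endoderm-rule cells. Apoe was 2795, 2653 and 1917 CPM there.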

How the results depend on the processing

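Every member kept its direction and its call for endoderm-rule over Pou5f1-rule cells in all 19 alternatives, with log2 differences from 5.78 to 8.10 for Apob and from 2.12 to 2.50 for Apoe. The other comparisons depended on which cells the rules admit. With endoderm-rule cells cut at 200 CPM, 1 member was called over keratin-rule cells (24% of all genes called higher) and Apoa1 was at -0.028. With all 3 types pooled without a replicate block, 2 members were called there (28.3% of genes), and Apoe in keratin-rule over Pou5f1-rule cells was 0.040. That Apoe value was 0.91 at 200 CPM, 0.17 with plain totals, and between -0.41 without Type I and 0.37 without Type III (adjusted p = 3.28e-06, edgeR). Members called in that comparison ranged from 1 without Type I (22.9% of all genes called higher) to 6 without Type III (31.6%). Leaving out Ttr/Rbp4-high cells turned it to -1.46 for Apoa1, -1.49 for Apoa2, -0.84 for Apob, -0.68 for Apoc2 and -0.65 for Apom. Leaving them out of Pou5f1-rule cells too gave -0.63, -0.46, -0.17, -0.34 and -0.22, with 2 members called lower (30.1% of genes). DESeq2 did not call Apoa1 and Apoa2 over keratin-rule cells (adjusted p = 0.0693 and 0.0826). Thinned to 10000 UMIs, all genes called were 5279 (8199 otherwise) for endoderm-rule over keratin-rule cells and 5171 (7980) for keratin-rule over Pou5f1-rule cells, and leaving out 1 library gave 5080 to 8583 for the latter. Plain totals shifted the median of all genes by 0.14, -0.15 and 0.29 and changed the split of higher and lower calls from 4173 and 4026 to 3362 and 5157 over keratin-rule cells, and from 4155 and 3825 to 6358 and 2216 for keratin-rule over Pou5f1-rule cells.

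The median rho over the 10 pairs without Apoe was 0.68 in Type I and 0.66 in Type II on log2(CPM + 1) of all UMIs. In Type III it was 0.73 by Pearson, 0.62 at a minimum of 20000 UMIs, 0.62 at 200 CPM and 0.51 without shared barcodes. For Apoe with the other 5, Pearson gave 0.57, 0.55 and 0.59, the 200 CPM cut gave 0.58 in Type II and log2(CPM + 1) gave 0.76 in Type III. Of 270 shares of cells under other settings, 121 moved beyond their interval. In Type III the 5 members other than Apoe rest on 4 to 14 UMIs in keratin-rule cells and 6 to 32 in Pou5f1-rule cells.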

Other observations

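Cells near the edge of the endoderm rule varied widely in apolipoprotein mRNA. Those just outside it, at 50 to 100 CPM of Gata6, Sox17 and Gata4, had a summed level of the 5 members other than Apoe of 2665 CPM in Type I (79 cells) and 2530 CPM in Type II (117 cells), but a median cell of only 88.3 and 215 CPM. Those just inside, at 100 to 150 CPM, had 3687 CPM (57 cells) and 3269 CPM (110 cells), with medians of 2786 and 1817 CPM. In Type III the values were 457 CPM in 7 cells outside (median 0) and 26.2 CPM in 6 inside (median 12.5).

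The cells that met no rule had the 5 members at 280, 75.8 and 224 CPM and Apoe at 1431, 1312 and 1737 CPM in Types I, II and III.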
